A study of Mus musculus with 11 samples.

Results

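Cells of the mouse duodenal epithelium that carried no reporter signal were compared between 2 strains. The strains were a Neurod1-cre-eYFP strain, in which Cre recombinase made under Neurod1 switches on a yellow fluorescent protein, and the GluVenus strain, in which the Venus protein reports the proglucagon gene Gcg. In each strain the digested epithelium was sorted into reporter-positive cells and a like number of reporter-negative cells, and 5 of the 11 libraries held negative cells. Of these, 3 came from the Neurod1-cre-eYFP strain (NeuroD1 negative, labelled NeuroD1_negative_6360, NeuroD1_negative_6361 and NeuroD1_negative_6362) and 2 from GluVenus (Glu negative, labelled Glu_negative_5254 and Glu_negative_4665), and values are always given in that order. Members were chosen by their column names alone, and mt-Rnr1 and mt-Rnr2, which encode the ribosomal RNA of mitochondria, were left out of every total. All mice were kept on standard chow, both groups carried a reporter, and mice without one were not analysed here. Age, sex, genetic background and any pooling of animals are not given in the labels, nor whether each number stands for its own animal. The p-values therefore reflect only how far libraries of a group spread, which may be technical. That spread was taken from all 11 libraries, positive ones included. Label numbers shared by positive and negative libraries were not part of the fit. Because Cre acts once and permanently, the eYFP marks cells with a history of Neurod1 expression, while Venus follows Gcg regulatory sequence. The labels do not say how much genomic sequence the Venus transgene holds.

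The epithelium of the small intestine is renewed from stem cells in the crypts. Most of its cells are enterocytes, which digest and absorb food at their brush border. Goblet cells secrete mucus, Paneth cells secrete antimicrobial peptides at the crypt base, tuft cells sense luminal contents, and enteroendocrine cells release hormones. Lymphocytes sit between the epithelial cells, and plasma cells making immunoglobulin A, fibroblasts, muscle and vessels lie in the tissue beneath. A negative gate keeps everything except the sorted reporter cells, so it can hold any of these. In bulk libraries such as these, fewer cells of a type and less RNA per cell cannot be told apart.

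Library sizes without the 2 mitochondrial ribosomal genes were 4329182, 1528145 and 1833109 counts in NeuroD1 negative and 3590861 and 5276953 in Glu negative. Several libraries stood apart from their group. Both excluded genes have a value of 0 in NeuroD1_negative_6360 and in both Glu negative libraries, but took 33.0% and 33.9% of the deposited counts of NeuroD1_negative_6361 and NeuroD1_negative_6362. Libraries within a group were not counting replicates of each other, for which a chi-square divided by its degrees of freedom would be 1. This measure was 11.3 to 17.6 among the NeuroD1 negatives and 62.5 between the Glu negatives. The Y-linked genes Kdm5d, Ddx3y and Eif2s3y are listed at 0 in all 3 NeuroD1 negatives. Kdm5d had 57.7 and 3.19 CPM (counts relative to the library's total, after TMM scaling) in the Glu negatives, and Ddx3y had 18.7 and 0.168 CPM. Xist, made from the inactive X chromosome, had 1295, 1582 and 1201 CPM in NeuroD1 negative against 315 and 1960.4 in Glu negative. Glu_negative_5254 thus held transcripts of Y-linked genes together with Xist. Xist overlapped between the strains, while the Y-linked genes were detected in the Glu negatives and had no count in the NeuroD1 negatives, so that for them strain and sex composition cannot be told apart. None of the Y-linked genes passed the test between the groups (edgeR adjusted p = 0.0999 to 0.250), and all 3 did without a low-count filter (adjusted p = 3.10e-11 to 5.01e-04).

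Epithelial marker genes were present in both gates, together with genes of immune cells that are described below. Epcam, an epithelial adhesion molecule, had 693, 528 and 602 CPM in NeuroD1 negative against 473 and 473 in Glu negative, and Krt19, a keratin of simple epithelia, had 1395, 1397 and 912 CPM against 903 and 614. None of 12 epithelial keratin and adhesion genes passed the test (median log2 fold change 0.12). All 4 markers named for the gate were present in every library. For the enterocyte markers, Apoa4, an apolipoprotein of fat export, had 373, 185 and 929.7 CPM in NeuroD1 negative against 219 and 225 in Glu negative, and Fabp1, a fatty acid binding protein, had 820.3, 752 and 1971 CPM against 597 and 615. Muc2, the main secreted mucin of goblet cells, had 529, 557 and 436 CPM against 776 and 494. Igha, the heavy chain of immunoglobulin A, had 33231, 43476 and 19853 CPM against 14154 and 104100.0. The values of these 4 genes overlapped between the strains for Apoa4, Muc2 and Igha and did not for Fabp1, and none passed the test (edgeR adjusted p = 0.575 to 0.931). Without Glu_negative_4665 the log2 fold change of Igha turned from -0.88 to 1.19.

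The negative cells of the strains differed in a small number of genes, most of them higher in NeuroD1 negative. Of 14629 genes tested with edgeR's quasi-likelihood test, 69 passed an adjusted p under 0.05 (0.472%), of which 52 were higher in NeuroD1 negative (0.355% of those tested) and 17 lower (0.116%). An unadjusted p under 0.05 was reached by 1344 genes. Log2 fold changes are NeuroD1 negative minus Glu negative throughout, and their median over all genes was -0.01. In all 69 genes the libraries of the 2 groups did not overlap. Over all genes tested, 2266 (15.5%) lay without overlap higher and 2367 (16.2%) lower. Of the 52 higher genes, 26 had no count in either Glu negative library. The number of calls depended on single libraries, with 28 left without Glu_negative_5254 (25 of them among the 69), 33 without Glu_negative_4665 (30 of the 69) and 36 without NeuroD1_negative_6362 (35 of the 69).

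**Figure D1:**
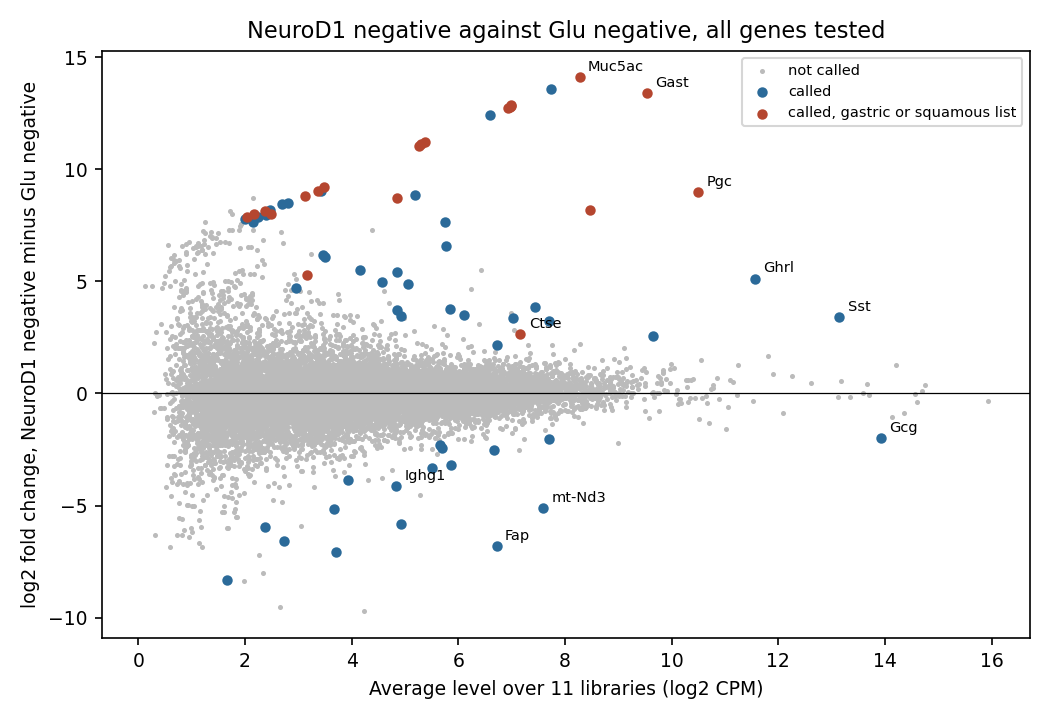
Log2 fold change, NeuroD1 negative minus Glu negative, against the average level over 11 libraries (log2 CPM) for the 14629 genes tested; each point is a gene. Grey points did not pass, blue points passed, and red points passed and belong to the gastric and squamous list; the red points all lie above 0, with Muc5ac and Gast highest among the labelled genes, and Fap is the lowest of the labelled genes. The height of a gene with no count in 1 group depends on the fit's prior count and is no bound.

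Genes known from the glandular stomach were 18 of the 52 genes that were higher in NeuroD1 negative, and 3 more were genes of squamous epithelium. They are described by the gastric cell type they are known from, using a list of 26 gastric and squamous genes drawn up after their values had been seen, so its counts are a description. Of these, 22 were tested and 21 passed, all higher, where 0.355% of all genes passed higher. The genes of surface mucous cells described here, which coat the stomach with mucus, were present in every NeuroD1 negative library and at 0 in both Glu negatives. Muc5ac (ENSMUSG00000037974, chr7:141788972-141819231, GRCm38), the secreted mucin of that surface, had 531, 677 and 695 CPM in NeuroD1 negative against 0 and 0 in Glu negative. The 3 NeuroD1 values lay close together, and with a floor of 3 counts over the Glu group the gene was at least 1935-fold higher (edgeR adjusted p = 8.58e-08). Tff1, a trefoil peptide that stabilises gastric mucus, had 222, 288 and 288 CPM against 0 and 0 and was at least 809.9-fold higher. Gkn1 and Gkn2 encode gastrokines, proteins secreted with the mucus. Gkn1 had 215, 272 and 287 CPM against 0 and 0 and was at least 787-fold higher, and Gkn2 had 212, 261 and 262 CPM against 0 and 0 and was at least 755-fold higher. Psca, a surface antigen of gastric pit cells, had 70.4, 72.9 and 88.3 CPM against 0 and 0 and was at least 243-fold higher. Adjusted p-values of these 4 genes were 2.41e-07 to 1.44e-05.

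Products of gastric glands differed in the same direction. Muc6, the mucin of gland mucous cells, had 599.7, 1056 and 698 CPM in NeuroD1 negative against 1.60 and 3.52 in Glu negative (log2 fold change 8.19 ± 0.91, adjusted p = 3.03e-05). Tff2, their trefoil peptide, had 233, 318 and 269.7 CPM against 0 and 0 and was at least 836-fold higher (adjusted p = 2.41e-07). Neither gene overlapped between the groups. Pgc, the chief cell zymogen progastricsin, had 2526, 3054 and 3012 CPM against 2.40 and 8.39 (log2 fold change 8.99 ± 1.04, adjusted p = 5.07e-05). Its fold change moved with the Glu libraries, from 8.39 without Glu_negative_5254 to 10.20 without Glu_negative_4665, and that of Muc6 was 8.90 without the latter. Further chief cell genes passed at lower counts. Pga5, pepsinogen 5, had 8.93, 11.5 and 9.93 CPM against 0 and 0, Chia1, an acidic chitinase, had 21.1, 22.5 and 20.4 CPM against 0 and 0, and Gif, which encodes gastric intrinsic factor, had 19.8, 19.4 and 18.3 CPM against 0 and 0. All 3 passed (adjusted p = 0.00144 to 0.0471), with lower bounds of 31.3-fold to 68.5-fold. The calls on Gif and Pga5 were lost without any one of the 5 libraries (adjusted p = 0.0869 to 0.492 and 0.0507 to 0.299), and that on Chia1 without Glu_negative_4665 (0.0521). Lipf, gastric lipase, is listed at 0 in all 5 libraries.

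Genes of acid secretion and of the gastric hormone gastrin followed. Atp4a and Atp4b encode the subunits of the proton pump of parietal cells. Atp4a had 52.3, 64.4 and 55.4 CPM against 0 and 0.168, and Atp4b had 75.3, 85.0 and 82.6 CPM against 0 and 0 and was at least 255-fold higher (adjusted p = 1.64e-05). For Atp4a, with 1 count in the Glu group, the ratio was 538 (exact 95% interval 96.1 to 21289.7, counting error only). Kcne2, a potassium channel subunit needed by the pump, had 1.91, 1.21 and 0.523 CPM against 0 and 0 and was too low to be tested. Aqp4, a water channel of parietal cells, had 35.5, 23.1 and 21.9 CPM against 45.4 and 25.0, overlapped between the groups and did not pass (adjusted p = 0.922). Gast (ENSMUSG00000017165, chr11:100334407-100336996), which encodes gastrin, the hormone of antral G cells, had 1281, 1579 and 1584 CPM against 0 and 0.168. The Gast values of the groups were far apart. The Glu group held 1 Gast count, which gave a ratio of 13683 with an exact 95% interval of 2455 to 540513 (adjusted p = 2.41e-07).

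The junction protein Cldn18, a claudin whose gastric form seals the stomach epithelium, had 79.6, 89.9 and 92.0 CPM against 0 and 0 and was at least 273-fold higher (adjusted p = 6.95e-06). Vsig1, an adhesion molecule of gastric epithelium, had 12.6, 18.2 and 19.9 CPM against 0.267 and 0.503 (log2 fold change 5.27 ± 0.99, adjusted p = 0.0151), and Anxa10, an annexin of gastric mucosa, had 14.9, 17.0 and 17.2 CPM against 0 and 0. Ctse, the aspartic protease cathepsin E, was the 1 called gene of the list with clear levels in both groups, at 241, 296 and 279.6 CPM against 23.0 and 62.9 (log2 fold change 2.66 ± 0.50, adjusted p = 0.0148). The log2 fold change of Ctse was 3.57 without Glu_negative_4665. Its call was lost without NeuroD1_negative_6361 or NeuroD1_negative_6362 or Glu_negative_5254 (adjusted p = 0.0553, 0.0502 and 0.417), that on Vsig1 without any one but NeuroD1_negative_6360 (0.0537 to 0.299), and that on Anxa10 without either Glu library (0.0773 to 0.115). Sox2, a transcription factor of foregut, had 0.638, 0 and 0 CPM against 0 and 0 and was not tested. The mouse stomach also has a squamous forestomach, and 3 of 4 squamous genes passed, where 0.355% of all genes passed higher. Krt5, the basal keratin, had 7.87, 7.89 and 9.93 CPM against 0 and 0. Krt1, a keratin of differentiated layers, had 7.45, 10.3 and 10.5 CPM against 0 and 0, and Gsdma2, a gasdermin, had 7.66, 7.29 and 12.5 CPM against 0 and 0. These 3 calls were lost without any one of the 5 libraries (adjusted p = 0.0507 to 0.370 for Krt1, with 0.0672 to 0.401 for Krt5 and 0.0599 to 0.385 for Gsdma2). Krt14, the partner of Krt5, had 1.91, 0.607 and 2.61 CPM against 0.267 and 0 and was not tested. Outside the list, and also named after its values were seen, Pla2g1b, a secreted phospholipase A2 known from pancreatic juice, had 386, 487 and 445 CPM against 0 and 0 and was at least 1358-fold higher (adjusted p = 8.58e-08). Of 10 pancreatic acinar genes, only Cela1 was tested (13.4, 17.0 and 23.0 CPM against 8.28 and 10.7, adjusted p = 0.763), and Cela2a, Cpa1, Cpb1 and Amy2a5 are listed at 0 in all 5 negative libraries.

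**Figure D2:**
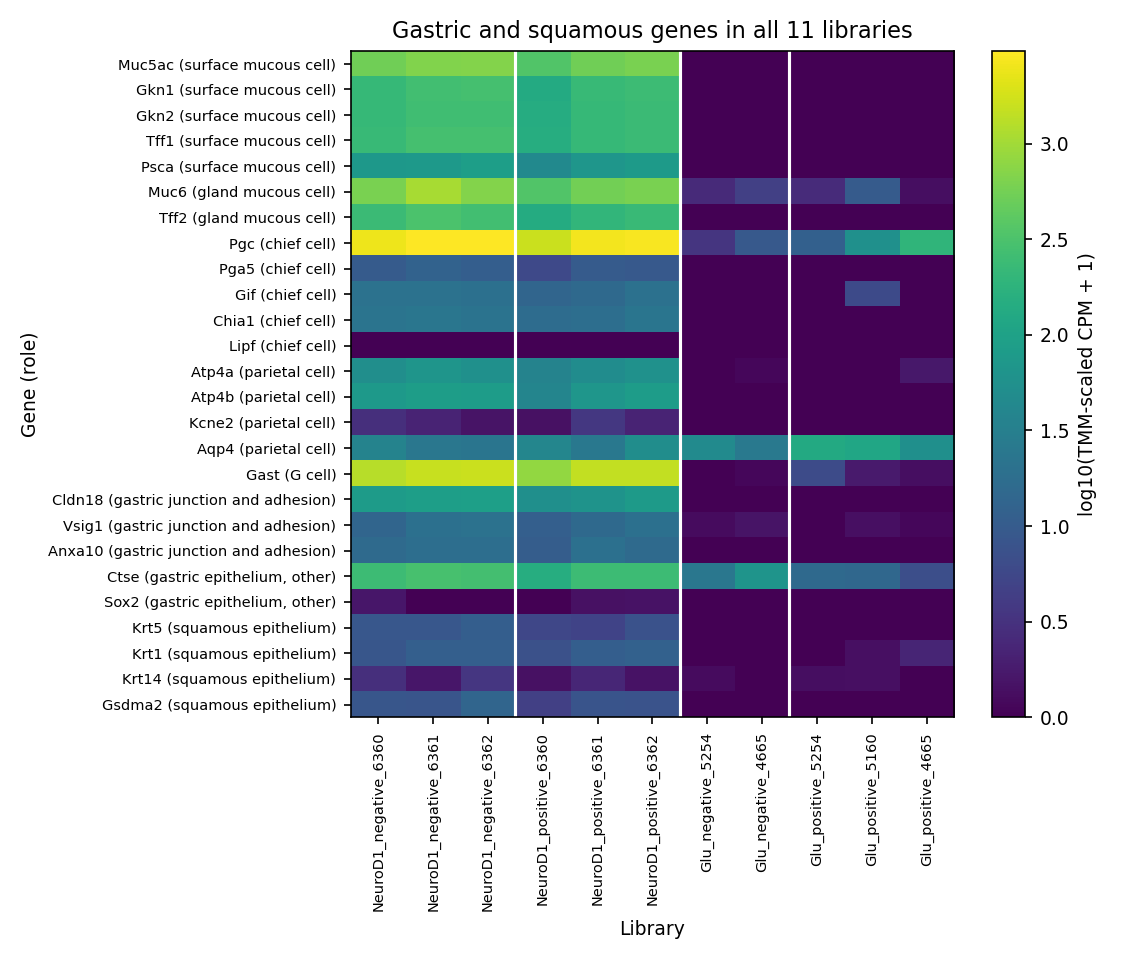
Level of the 26 gastric and squamous genes in all 11 libraries as log10(TMM-scaled CPM + 1); rows are genes with the cell type they are known from, columns are libraries, and white lines separate the groups. The 6 libraries of the Neurod1-cre-eYFP strain, positive and negative, show the same bright rows, while the 5 GluVenus libraries are dark in nearly all rows except Aqp4, Ctse, Pgc and Muc6.

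The same genes were measured in the sorted positive cells of the Neurod1-cre-eYFP strain. Muc5ac had 349, 543 and 607 CPM in the NeuroD1_positive libraries of the same 3 numbers, Gast had 840.4, 1447 and 1444 and Pgc 1617, 2615 and 2846. All 9 of these values were lower than in the negative cells with the same number, by less than 2-fold. Over 19 gastric genes with a mean of at least 10 CPM in NeuroD1 negative, the ratio of the positive to the negative mean ranged from 0.639 to 1.39, with a median of 0.807, and it was under 1 for 18 of them, all but Aqp4. The same ratio had a median of 0.0840 over 13 brush border genes, 0.0588 over 13 T and NK cell genes, 0.0519 over 10 plasma cell genes and 14.8 over 14 hormone and granin genes. The gastric ratios were thus mostly a little under 1, while the medians of the other 4 lists were far from 1. Across those 19 genes the log2 profiles of the 6 libraries of this strain correlated with Pearson's r of 0.983 to 0.997 over 15 pairs, a description in which the points are the same genes and libraries share label numbers. In Glu_positive_5254, Glu_positive_5160 and Glu_positive_4665, Muc5ac had 0, 0 and 0 CPM, Gast 5.17, 0.792 and 0.329 and Pgc 10.7, 54.7 and 191. Where in the dissected tissue these transcripts came from was not tested.

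Promoter sequences are shown for 5 of these genes because they are called gastric genes whose window in the RefSeq promoter table (build GRCm38.p6) holds 1 of 2 motifs searched for, and they were picked for those matches. Of 23 gastric, squamous and accompanying genes that passed, 13 had an entry. Each sequence is the 200 bases before the annotated start, 5′ to 3′ on the strand of the gene, and capitals mark a match on either strand. The match is to TATAAA, a core promoter element, in the first 3 sequences and to AGATAA, which zinc finger factors of the gut are known to bind, in the last 2. The windows are Gkn2 at chr6:87373165-87373364, plus strand; Gast at chr11:100334207-100334406, plus strand; Pgc at chr17:47726642-47726841, plus strand; Muc6 at chr7:141655394-141655593, minus strand; and Cldn18 at chr9:99717268-99717467, minus strand. Cldn18 has another annotated start, whose window at chr9:99710064-99710263 held neither motif and is not printed. Which start of Cldn18 was in use in these cells was not tested.
Gkn2: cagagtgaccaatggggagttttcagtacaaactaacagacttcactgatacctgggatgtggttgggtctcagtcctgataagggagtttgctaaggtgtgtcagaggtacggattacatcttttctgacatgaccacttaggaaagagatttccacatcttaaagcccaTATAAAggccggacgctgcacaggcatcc
Gast: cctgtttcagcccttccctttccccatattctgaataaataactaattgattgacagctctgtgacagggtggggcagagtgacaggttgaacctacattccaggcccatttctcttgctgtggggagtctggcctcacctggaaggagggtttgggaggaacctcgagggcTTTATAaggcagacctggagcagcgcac
Pgc: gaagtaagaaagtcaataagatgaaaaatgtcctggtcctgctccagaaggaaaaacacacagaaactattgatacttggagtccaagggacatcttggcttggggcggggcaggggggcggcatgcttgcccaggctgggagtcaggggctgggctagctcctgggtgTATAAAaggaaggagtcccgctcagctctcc
Muc6: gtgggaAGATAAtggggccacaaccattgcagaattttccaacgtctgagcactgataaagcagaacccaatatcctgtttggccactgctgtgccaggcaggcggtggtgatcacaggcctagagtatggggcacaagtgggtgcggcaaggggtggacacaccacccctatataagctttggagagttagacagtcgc
Cldn18: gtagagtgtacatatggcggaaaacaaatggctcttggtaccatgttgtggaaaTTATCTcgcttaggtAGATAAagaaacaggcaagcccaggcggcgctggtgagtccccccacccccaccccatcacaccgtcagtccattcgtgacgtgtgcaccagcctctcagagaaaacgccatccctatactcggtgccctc
A match to TATAAA begins 29 bases before the start in Gkn2, 28 in Gast and 31 in Pgc. Among the 13 genes, 5 held TATAAA and 3 held AGATAA, and over 32851 windows of 200 bases the shares were 9.96% and 7.80%. A match describes the letters of the window and no more.

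Brunner's glands, the mucous glands beneath the duodenal epithelium, make some of the same products as gastric glands. Of 6 genes listed for them, 4 were tested and 3 passed, all higher in NeuroD1 negative, where 0.355% of all genes were. These were Tff2, Muc6 and Pgc, described above and counted in the gastric list too. Gkn3 had 38.5, 42.5 and 41.3 CPM against 9.62 and 0.168 and did not pass (adjusted p = 0.305), with no overlap between the groups, although it passed without a low-count filter (adjusted p = 0.0164) and with limma voom (0.0352). Aqp5, a water channel of serous and mucous glands, was too low to be tested, with 13 counts over the NeuroD1 group and 0 over the Glu group. Together the 6 genes took 0.369, 0.482 and 0.420% of counts in NeuroD1 negative against 0.00145 and 0.00136% in Glu negative. Tff3, the trefoil peptide of intestinal goblet cells, lies on the same chromosome as Tff1 and Tff2 and had 235, 373 and 167 CPM against 435 and 281 (adjusted p = 0.835).

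Hormone genes were found in both negative gates, and their makeup differed. The 16 hormone and granin genes together took 0.745, 0.919 and 0.899% of counts in NeuroD1 negative against 0.721 and 0.616% in Glu negative, where the positive libraries held 18.8, 18.9 and 17.9% (NeuroD1) and 9.01, 5.21 and 11.3% (Glu). Of the 16, 4 were higher in NeuroD1 negative and 1 was lower, where 0.355% and 0.116% of all genes were. Ghrl, the hunger hormone ghrelin, made mainly in the stomach, had 783, 1009 and 1017 CPM in NeuroD1 negative against 13.6 and 39.6 in Glu negative (log2 fold change 5.12 ± 0.54, adjusted p = 1.74e-05). Sst, somatostatin, a paracrine inhibitor of other endocrine cells, had 1924, 2418 and 2493 CPM against 119 and 311 (log2 fold change 3.40 ± 0.50, adjusted p = 0.00107). The groups were far apart for both genes, and the log2 fold changes were 6.10 for Ghrl and 4.26 for Sst without Glu_negative_4665. Chga, a granin of secretory vesicles, had 128, 165 and 175 CPM against 24.8 and 28.4 (log2 fold change 2.55 ± 0.36, adjusted p = 8.63e-04). Tph1, the enzyme that starts serotonin synthesis in enterochromaffin cells, had 45.7, 52.8 and 54.9 CPM against 3.47 and 7.05 (log2 fold change 3.24 ± 0.58, adjusted p = 0.00960), a call that was lost without Glu_negative_5254 (adjusted p = 0.282) and without Glu_negative_4665 (0.0736). All 4 genes differed in the same direction between the positive cells. NeuroD1 positive had 7800, 10038 and 11278 CPM of Ghrl, 26468, 19942 and 45452 of Sst, 3232, 2537 and 2121 of Chga and 530, 999 and 458 of Tph1. Glu positive had 552, 215 and 488 CPM of Ghrl, 167, 204 and 101 of Sst, 132, 135 and 189 of Chga and 15.9, 35.7 and 66.3 of Tph1.

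Gcg, the proglucagon gene that yields GLP-1, went the other way. It had 694, 851 and 919 CPM in NeuroD1 negative against 3826 and 2722 in Glu negative, without overlap (log2 fold change -2.00 ± 0.39, adjusted p = 0.0229). In the positive libraries Gcg had 14827, 13245 and 11932 CPM in NeuroD1 positive and 69333, 23227 and 29900.5 in Glu positive. The call on Gcg was kept without Glu_negative_4665 and lost without any one of the other 4 libraries (adjusted p = 0.0859 to 0.214). Cck, cholecystokinin, had 689, 927 and 857 CPM against 1202 and 919, Gip, the incretin of K cells, had 247, 301 and 314 CPM against 155 and 181, and Sct, secretin, had 54.7, 71.0 and 82.0 CPM against 71.1 and 52.2. Nts, neurotensin, had 111, 158 and 153 CPM against 125 and 77.5, and Pyy, peptide YY, had 51.1, 68.0 and 64.8 CPM against 151 and 108. None of these 5 passed (adjusted p = 0.378 to 0.967). Insl5, a hormone of colonic L cells, was outside the list and passed lower, at 8.72, 4.25 and 5.75 CPM against 72.7 and 58.2 (log2 fold change -3.34 ± 0.57, adjusted p = 0.00653). Its call was lost without NeuroD1_negative_6361 or NeuroD1_negative_6362 or Glu_negative_5254 (adjusted p = 0.0553, 0.0556 and 0.0861).

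A further 8 genes that were higher in NeuroD1 negative are described here, chosen after their values were seen and belonging to no list. The neurofilament genes Nefl and Nefm had 80.8, 99.6 and 100.3 CPM against 13.9 and 2.85 and 96.6, 116 and 117 CPM against 12.3 and 9.06. Dcx, the microtubule protein doublecortin, had 31.3, 33.4 and 31.4 CPM against 1.07 and 0.336, and Elavl2, a neuronal RNA-binding protein, had 16.4, 18.2 and 21.4 CPM against 0 and 0 and was at least 57.9-fold higher. Pcsk2, a prohormone convertase, had 35.3, 42.5 and 37.6 CPM against 0 and 2.18, and Sv2b, a synaptic vesicle protein, had 51.9, 67.4 and 56.4 CPM against 0.534 and 2.01. Clu, clusterin, had 94.7, 118 and 113 CPM against 0.267 and 0.671, and Peg10, an imprinted retrotransposon-derived gene, had 96.2, 111 and 131 CPM against 0.267 and 1.85. All 8 were without overlap (adjusted p = 6.95e-06 to 0.0422). The Nefl call was lost without any one of the 5 libraries (0.0598 to 0.562), those on Dcx and Elavl2 without either Glu library (0.0992 to 0.260 and 0.0598 to 0.0851), that on Nefm without Glu_negative_4665 (0.0816), and those on Pcsk2 and Sv2b without Glu_negative_5254 (0.183 and 0.0722). The calls on Clu and Peg10 were kept, with log2 fold changes of 7.66 and 6.57 that became 8.47 and 8.52 without Glu_negative_4665, and 5.88 for Peg10 without Glu_negative_5254. Of 7 markers of enteric neurons and glia, 3 were tested and 0 passed, and the glial genes had 0 counts of Sox10 and 1 of S100b over the NeuroD1 group. In the positive cells of the same strain Dcx had 17.8, 30.9 and 38.0 CPM, Clu 60.5, 89.5 and 109 and Elavl2 10.7, 23.7 and 23.6. Of the 52 genes higher in NeuroD1 negative, 41 had a mean in NeuroD1 positive between 0.5 and 2 times that in NeuroD1 negative, 9 had more and 2 less.

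Enterocyte genes took a larger summed share of counts in the NeuroD1 gate, while no single one of them passed the test. The 46 enterocyte genes together made up 2.46, 1.48 and 4.55% of counts in NeuroD1 negative against 1.29 and 1.04% in Glu negative. The groups did not overlap, but the NeuroD1 libraries themselves spread widely and the lowest of them was close to the highest Glu library. With 3 against 2 libraries an exact permutation test cannot go below p = 0.2, so the shares of this and the other cell type lists were not tested. The log2 ratio of the enterocyte share, 1.28, was 0.76 without NeuroD1_negative_6362. Of 14 brush border genes, 13 had a positive fold change (median 1.38), of 16 fat absorption genes 15 (median 1.13), and of 15 transporter genes tested 13 (median 1.15), against 7249 of all 14629 genes and a median of -0.01. Anpep, the brush border aminopeptidase N, had 5659, 3413 and 9981 CPM in NeuroD1 negative against 2253 and 1689 in Glu negative (log2 fold change 1.69 ± 0.44, adjusted p = 0.131). Sis, sucrase-isomaltase, had 1803, 1015 and 3485 CPM against 1084 and 639, and Lct, lactase, had 390.4, 119 and 857 CPM against 112 and 93.6 (adjusted p = 0.169). Alpi, intestinal alkaline phosphatase, had 900.1, 779 and 1544 CPM against 449.7 and 319. NeuroD1_negative_6362 was the highest library for all 4 and NeuroD1_negative_6361 the lowest of its group.

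Fat and sugar uptake genes showed the same order of libraries. Fabp2, the intestinal fatty acid binding protein, had 2058, 1240.5 and 3604 CPM against 1001 and 875 (adjusted p = 0.267). Slc5a1, the sodium-glucose transporter, had 729, 485 and 1549 CPM against 419 and 275 (adjusted p = 0.285), and Slc2a2, the basolateral glucose transporter, had 79.8, 25.5 and 166 CPM against 18.4 and 11.1. S100g, a calcium carrier of the duodenum, had 79.6, 57.1 and 94.1 CPM against 17.1 and 12.8 (log2 fold change 2.37 ± 0.93, adjusted p = 0.408). Across the 45 enterocyte genes tested, 23 lay without overlap higher and 2 lower, where all genes gave 15.5% and 16.2%. The lowest adjusted p of the 45 was 0.131. Without a low-count filter Anpep, Sis, Lct, Alpi, Fabp2, Slc5a1 and Slc2a2 passed, at adjusted p-values of 2.66e-04 (Anpep) to 0.0483 (Fabp2). DESeq2 called Anpep (0.0431), Lct (0.0382) and Slc2a2 (0.0474).

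**Figure D3:**
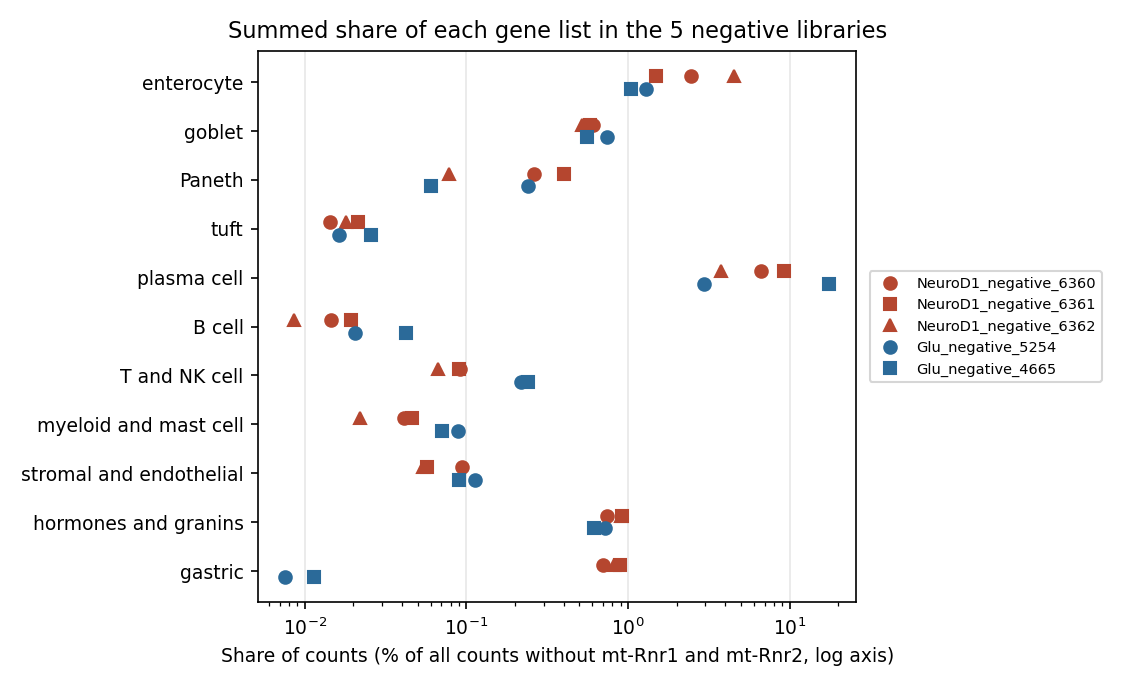
Summed share of counts (percent of all counts without mt-Rnr1 and mt-Rnr2, log axis) of each gene list in the 5 negative libraries; red symbols are NeuroD1 negative, blue symbols Glu negative, and the symbol shape tells the library. Gastric genes are 0.701% to 0.887% in red and 0.00760% to 0.0114% in blue, T and NK cell genes are higher in blue, and plasma cell genes run from 2.95% to 17.5% within the Glu group alone.

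Genes of the secretory cells of the intestine itself overlapped in share between the gates. The 12 goblet genes took 0.610, 0.578 and 0.520% of counts in NeuroD1 negative against 0.737 and 0.561% in Glu negative, and none of 11 tested passed (median -0.38). The log2 ratio of the goblet share, -0.19, turned to 0.02 without Glu_negative_5254. Zg16, a lectin-like goblet protein, had 497, 650.3 and 304 CPM against 618 and 444, and Spink4, a goblet protease inhibitor, had 147, 215 and 59.6 CPM against 299 and 250.2. The 12 Paneth genes took 0.262, 0.404 and 0.0783% against 0.240 and 0.0601% of counts, and libraries of the same group were further apart than the group means. Lyz1, the Paneth lysozyme, had 1220.0, 2166 and 432 CPM against 1101 and 225, and Defa24, a defensin, had 311, 361 and 88.8 CPM against 370.1 and 88.6. The log2 ratio of the Paneth share, 0.73, moved to 2.05 without Glu_negative_5254, to 0.05 without Glu_negative_4665, to 0.18 without NeuroD1_negative_6361 and to 1.15 without NeuroD1_negative_6362. The defensin genes are near-identical copies, among which the authors' counting could split reads. The 14 tuft genes took 0.0144, 0.0213 and 0.0179% against 0.0163 and 0.0257%, and none of 11 tested passed. The log2 ratio of the tuft share, -0.23, turned to 0.14 without Glu_negative_4665. Plcb2, a phospholipase of taste-like signalling, had 40.2, 23.1 and 32.4 CPM against 39.0 and 64.3, Trpm5, its cation channel, had 16.4, 14.0 and 24.6 CPM against 22.7 and 23.8, and Il25, the tuft cytokine, is listed at 0 in all 5 libraries. Reg3b and Reg3g, antimicrobial lectins of the epithelium, had 569, 1435 and 2519 CPM against 667 and 62.1 and 509, 646 and 819 CPM against 401 and 54.7, with Glu_negative_4665 lowest for both (adjusted p = 0.418 and 0.419). Both passed without a low-count filter (adjusted p = 1.79e-04 and 0.0388), and Reg3g passed without Glu_negative_5254 (0.0410).

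Genes of stem and dividing cells took small shares. The 11 stem cell genes took 0.0721, 0.0755 and 0.0448% against 0.0537 and 0.0493% of counts, with 0 of 10 tested passing, and the 19 proliferation genes took 0.151, 0.145 and 0.109% against 0.0959 and 0.105%, with 0 of 19 passing. Mki67, a marker of cycling cells, had 479, 424 and 379 CPM in NeuroD1 negative against 219.6 and 315 in Glu negative (adjusted p = 0.672), and Olfm4, a crypt stem cell gene, had 232, 234 and 90.4 CPM against 212 and 121 (adjusted p = 0.972).

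Plasma cell genes took the largest share of counts among the immune lists, and the 2 Glu libraries lay further apart than the means of the strains. The plasma cell list took 6.68, 9.26 and 3.77% of counts in NeuroD1 negative against 2.95 and 17.5% in Glu negative. Glu_negative_5254 was the lowest and Glu_negative_4665 the highest of all 5. The immune share as a whole, with a log2 ratio of -0.66, turned to 1.03 without Glu_negative_4665. Igkc, the kappa light chain, had 26294, 38949 and 15009 CPM against 11513 and 45473 (adjusted p = 0.987), and Jchain, which joins immunoglobulin A into dimers, had 1200.2, 2162 and 712 CPM against 1079 and 3627 (adjusted p = 0.794). All 12 plasma cell genes tested had a negative fold change (median -0.84) and 1 passed. This was Ighg1, the heavy chain of immunoglobulin G1, at 4.68, 14.0 and 1.57 CPM against 164 and 65.1 (log2 fold change -4.12 ± 0.79, adjusted p = 0.0166). Its call was lost without NeuroD1_negative_6360 or NeuroD1_negative_6362 or Glu_negative_5254 (adjusted p = 0.127, 0.102 and 0.385), and its fold change reached -5.09 without NeuroD1_negative_6361. Of 153 immunoglobulin genes tested, 4 passed lower and 1 higher, where 0.116% and 0.355% of all genes did. Of the 153, 88 had a positive and 65 a negative fold change (median 0.28). Without overlap, 26 lay higher and 17 lower, where 15.5% and 16.2% of all genes did.

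Plasma cell clones differ in the variable gene they use. Iglv1, a lambda variable gene, had 48.1, 97.8 and 64.3 CPM against 416 and 394 (log2 fold change -2.54 ± 0.50, adjusted p = 0.0229), and its call was kept without NeuroD1_negative_6361 and lost without any one of the other 4 libraries (adjusted p = 0.144 to 0.258). Igkv4-74, a kappa variable gene, had 1.91, 0.607 and 5.23 CPM against 40.1 and 254 (log2 fold change -5.83 ± 0.92, adjusted p = 0.00446), a call lost without Glu_negative_4665 (adjusted p = 0.373), and its log2 fold change was -6.65 without NeuroD1_negative_6362 and -6.63 without Glu_negative_5254. Igkv12-89 passed in the other direction, at 28.3, 48.0 and 39.2 CPM against 0.267 and 0.671 (log2 fold change 6.18 ± 1.11, adjusted p = 0.00975), a call that held without NeuroD1_negative_6360 and was lost without any one of the other 4 (adjusted p = 0.0502 to 0.258). Variable genes are near copies of each other, so their counts are uncertain.

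Genes of T and NK cells took a smaller summed share of counts in the NeuroD1 gate. The 24 T and NK cell genes took 0.0909, 0.0903 and 0.0668% of counts in NeuroD1 negative against 0.218 and 0.241% in Glu negative, without overlap. All 22 tested had a negative fold change (median -1.55), 15 of them without overlap, where 16.2% of all genes lay so, and 0 passed (lowest adjusted p = 0.189, with 9 at an unadjusted p under 0.05). Gzma, a granzyme of cytotoxic lymphocytes, had 101, 128 and 125 CPM in NeuroD1 negative against 474 and 229 in Glu negative, Ccl5, a chemokine of the same cells, had 54.5, 57.1 and 57.5 CPM against 201 and 178, and Cd3e, a subunit of the T cell receptor complex, had 209, 168 and 142 CPM against 434 and 465. The groups did not overlap for any of the 3, and Gzma and Cd3e passed without a low-count filter (adjusted p = 0.0312 and 0.0461). Among genes outside the list, Thy1, a surface protein of T cells, passed at 21.7, 14.0 and 16.7 CPM against 113 and 213 (log2 fold change -3.21 ± 0.68, adjusted p = 0.0381). Gimap4, a GTPase of lymphocytes, had 54.7, 27.9 and 23.0 CPM against 170.2 and 180.1 (log2 fold change -2.30 ± 0.45, adjusted p = 0.0229), and Nfatc2, a transcription factor of activated T cells, had 29.1, 17.6 and 7.84 CPM against 99.9 and 102 (log2 fold change -2.45 ± 0.50, adjusted p = 0.0267). Unlike the T and NK cell list, Nfatc2 was not depleted in NeuroD1 positive, at 44.9, 41.6 and 54.9 CPM. There Thy1 had 3.11, 0 and 0.488 CPM and Gimap4 0.445, 0.895 and 0.975. Nfatc2 was thus also present where Thy1 and Gimap4 were near 0, and its cell source in the negative gates was not tested. The Thy1 call was lost without any one of the 5 libraries, and those of Gimap4 and Nfatc2 without any one but NeuroD1_negative_6360, at adjusted p-values of 0.109 to 0.522 for Thy1, 0.136 to 0.293 for Gimap4 and 0.127 to 0.251 for Nfatc2.

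Genes of antigen presentation to helper T cells had the same sign. All 7 MHC class II genes had a negative fold change (median -1.77) and no overlap, where 16.2% of all genes lay lower without overlap, and 1 passed, where 0.116% of all genes passed lower. H2-Ab1, a class II beta chain, had 179.5, 226 and 97.2 CPM in NeuroD1 negative against 728 and 639 in Glu negative (log2 fold change -2.03 ± 0.38, adjusted p = 0.0148). H2-Aa, its alpha chain, had 110.4, 179.7 and 73.2 CPM against 474 and 349 (adjusted p = 0.0800), and Cd74, the invariant chain, had 1004, 1209 and 699.7 CPM against 2034 and 2113 (adjusted p = 0.234). H2-Aa passed with DESeq2 (adjusted p = 0.0376), and both passed with limma voom (0.0163 and 0.0406). The H2-Ab1 call was kept without NeuroD1_negative_6361 and lost without any one of the other 4 (adjusted p = 0.0762 to 0.214). B cell genes took 0.0146, 0.0193 and 0.00851% against 0.0205 and 0.0420% of counts, with all 9 tested negative (median -1.22) and 0 called, and Cd79a, a subunit of the B cell receptor, had 54.5, 94.7 and 42.9 CPM against 59.6 and 188. Myeloid and mast cell genes took 0.0410, 0.0461 and 0.0218% against 0.0884 and 0.0704%, with 14 of 16 tested negative and 0 called. Lyz2, a macrophage lysozyme, had 30.8, 24.3 and 12.5 CPM against 96.5 and 77.2, and Fcer1g, an Fc receptor subunit, had 15.7, 52.2 and 15.2 CPM against 126 and 83.1. Of other called immune genes, Ccl22, a chemokine of dendritic cells, had 0.213, 1.21 and 0 CPM against 93.3 and 23.0, with 3 counts in the NeuroD1 group and a ratio of Glu to NeuroD1 of 138 (exact 95% interval 46.9 to 671). Tnfsf14, a cytokine of the tumour necrosis factor family, had 0, 0 and 0 CPM against 10.2 and 12.9 and was at least 32.6-fold lower. The Tnfsf14 call was lost without any one of the 5 libraries (adjusted p = 0.0736 to 0.251) and the Ccl22 call without NeuroD1_negative_6360 or NeuroD1_negative_6362 or Glu_negative_5254 (0.0807 to 0.282).

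**Figure D4:**
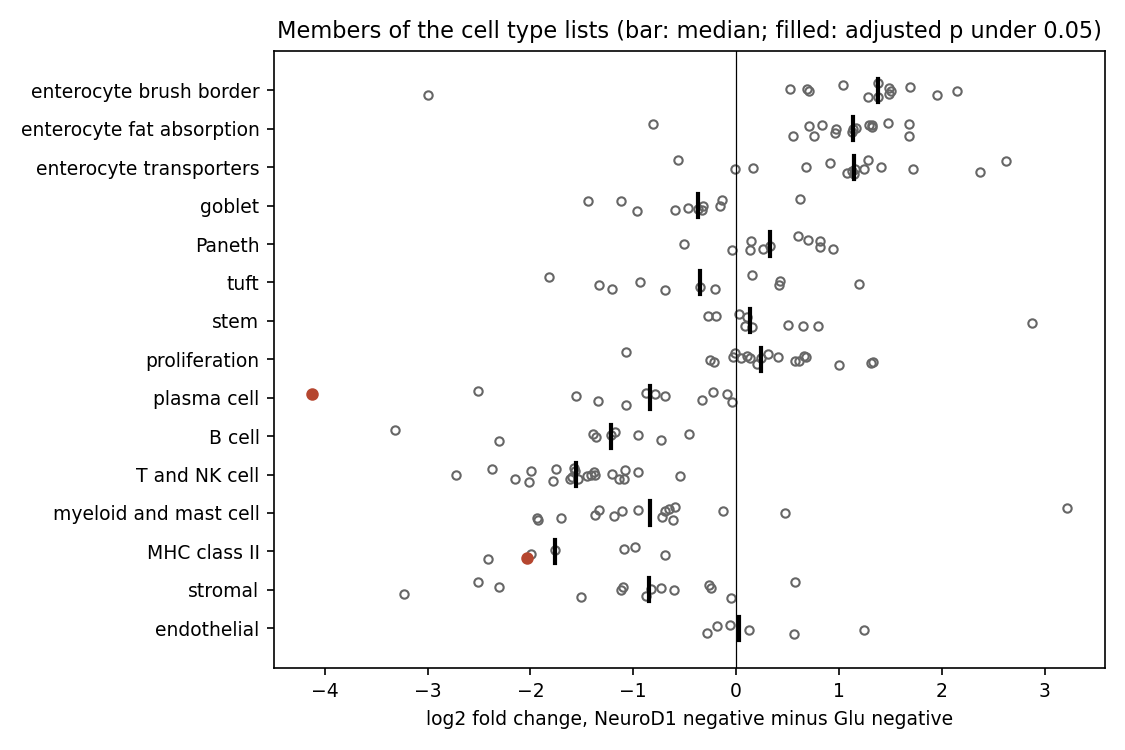
Log2 fold change (NeuroD1 negative minus Glu negative) of each tested member of 15 cell type lists; each circle is a gene, filled red where its adjusted p was under 0.05, and the black bar is the list's median. The enterocyte medians lie between 1.13 and 1.38, and the T and NK cell and MHC class II medians at -1.55 and -1.77; the filled members are Ighg1 and H2-Ab1.

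Stromal and vessel genes were a small part of both gates. Stromal genes took 0.0780, 0.0466 and 0.0477% of counts in NeuroD1 negative against 0.105 and 0.0806% in Glu negative, without overlap, and of 14 tested 13 had a negative fold change (median -0.85) and 0 passed. Vim, the filament of mesenchymal cells, had 67.2, 61.3 and 49.1 CPM in NeuroD1 negative against 151 and 104 in Glu negative (adjusted p = 0.421), Acta2, smooth muscle actin, had 91.5, 56.5 and 37.6 CPM against 153 and 67.6, and Col1a1, a fibrillar collagen, had 84.7, 39.5 and 51.7 CPM against 90.3 and 49.5. Endothelial genes took 0.0162, 0.0102 and 0.00649% against 0.00796 and 0.00995%, and 0 of 6 tested passed. Fap, a fibroblast protease named fibroblast activation protein, was far outside the range of the stromal list. It had 0.851, 1.21 and 0 CPM in NeuroD1 negative against 57.7 and 111 in Glu negative (log2 fold change -6.81 ± 0.62, adjusted p = 2.56e-06). In the positive cells Fap had 209, 471 and 301 CPM in Glu_positive_5254, Glu_positive_5160 and Glu_positive_4665 and 0.445, 0.447 and 0.244 in NeuroD1 positive, so that its levels followed the strain. No left-out library ended the call.

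Fap is the neighbour of Gcg on chromosome 2. Gcg lies at chr2:62474530-62483650 and Fap at chr2:62500943-62574075 (GRCm38), both on the minus strand, with their left ends 26.4 kb apart. The other genes around them did not pass. Dpp4, on the other side of Gcg, is a brush border peptidase that cleaves GLP-1 and had 164, 111 and 341 CPM against 139 and 115 (adjusted p = 0.671). Ifih1, a sensor of viral RNA, had 56.2, 48.6 and 56.4 CPM against 47.0 and 44.0 (adjusted p = 0.940), and Gca, the calcium-binding protein grancalcin, had 66.8, 43.1 and 50.2 CPM against 89.5 and 55.4 (adjusted p = 0.903). Kcnh7, a potassium channel gene, had 3.40, 3.04 and 9.93 CPM against 7.21 and 5.03 (adjusted p = 0.981). Only Gcg and Fap among the 7 genes tested in this stretch passed. These neighbours were looked at after the values of Fap had been seen.

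**Figure D5:**
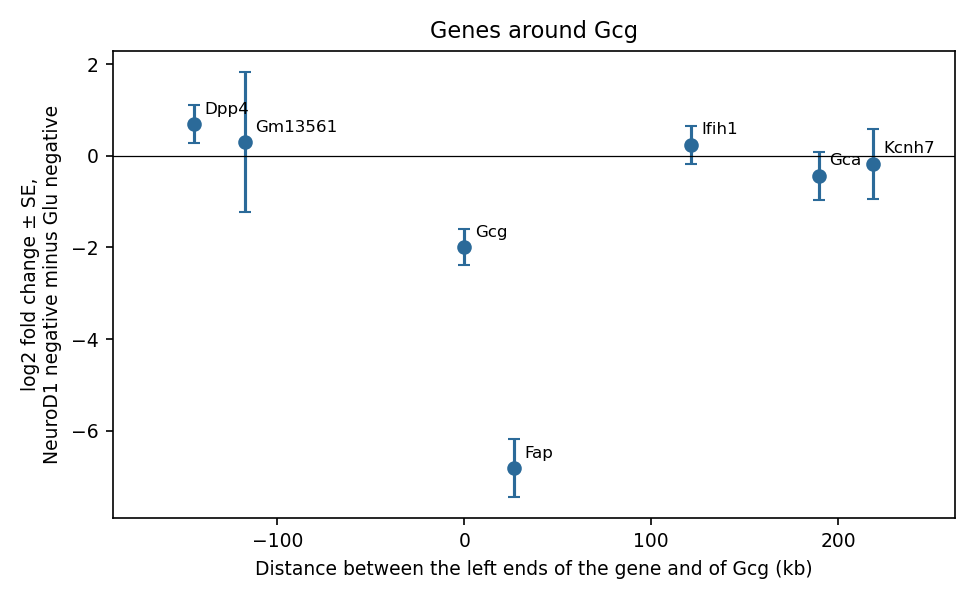
Log2 fold change ± SE (NeuroD1 negative minus Glu negative) of the 7 tested genes around Gcg, against the distance between the left end of each gene and that of Gcg in kb. Fap, 26.4 kb from Gcg, lies at -6.81 and Gcg at -2.00, while the other 5 lie within 2 SE of 0.

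Genes that mark the small intestine were present in both gates. Ccl25, a chemokine of the small intestinal epithelium, had 384, 237 and 312 CPM in NeuroD1 negative against 236 and 207 in Glu negative, and Gata4, a transcription factor of the proximal small intestine, had 119.8, 129 and 192 CPM against 106 and 57.2. Of 5 proximal genes tested 0 passed (median 0.49), and of 6 distal genes 0 passed (median -0.88). Fabp6, the ileal bile acid binding protein, had 13.6, 15.8 and 114 CPM against 138 and 109, with NeuroD1_negative_6362 in the range of the Glu libraries and NeuroD1_negative_6360 and NeuroD1_negative_6361 well below. Without NeuroD1_negative_6362 its log2 fold change went from -1.38 (adjusted p = 0.567) to -3.08 (adjusted p = 0.0217). Guca2a, the peptide guanylin, had 45.9, 46.1 and 40.2 CPM against 206 and 96.3 (adjusted p = 0.169).

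The counts of all 5 libraries were led by a shared set of genes. The leading 10 genes took 25.0, 28.8 and 23.9% of counts in NeuroD1 negative against 28.5 and 32.0% in Glu negative, with overlap. Of the leading 15 genes, 13 were shared by the groups. Lars2, a mitochondrial leucyl-tRNA synthetase, took 5.38, 5.73 and 5.02% against 8.37 and 5.32% of counts and led in 3 of the 5 libraries. The cytochrome oxidase gene mt-Co1 took 3.67, 3.40 and 5.07% against 4.19 and 2.09% and led in NeuroD1_negative_6362. Igha took 3.61, 4.69 and 2.07% against 1.48 and 11.8% and led in Glu_negative_4665. Igkc took 2.86, 4.20 and 1.57% against 1.20 and 5.14%. Malat1, a nuclear non-coding RNA, took 0.804, 0.948 and 1.12% against 1.98 and 2.01%, without overlap (adjusted p = 0.419). Genes that the annotation used here does not name took part too, and ENSMUSG00000083696 had 2.33, 2.85 and 2.40% against 2.96 and 1.78%. The leading genes that together held 50% of counts numbered 328, 259 and 270 in NeuroD1 negative and 243 and 281 in Glu negative.

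Per kilobase of exon, which allows levels of different genes to be compared, Igkc and mt-Co1 led. Igkc took 13.2, 17.9 and 7.70% of the length-scaled counts in NeuroD1 negative and 5.91 and 22.8% in Glu negative. Lars2, with an exon length of 11089 bases, fell to rank 10 by mean share in NeuroD1 negative and to rank 9 in Glu negative. Which part of the gene its reads came from was not tested. Gast ranked 14 on this scale in NeuroD1 negative, with 0.744, 0.842 and 0.940%, followed by Sst at 0.713, 0.822 and 0.944%. In Glu negative Sst had 0.0451 and 0.115%. Genes without a length in the annotation held 4.98% to 8.67% of counts and are not on it.

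Mitochondrial protein genes differed in 1 member. mt-Nd3, a subunit of respiratory complex I, had 14.3, 9.11 and 13.1 CPM in NeuroD1 negative against 755 and 95.8 in Glu negative (log2 fold change -5.11 ± 0.69, adjusted p = 4.69e-04). Its level followed the strain in the positive cells too, at 7.56, 11.6 and 8.78 CPM in NeuroD1 positive and 561, 503 and 133 in Glu positive. NeuroD1_negative_6360, where the excluded ribosomal genes are at 0, was as low for mt-Nd3 as NeuroD1_negative_6361 and NeuroD1_negative_6362, where they are not. Both Glu negatives have the ribosomal genes at 0 as well, and a link to the handling of mitochondrial genes was not tested. Without Glu_negative_5254 the log2 fold change was -2.97, and -5.93 without Glu_negative_4665. The call was kept in both cases and lost with limma voom (adjusted p = 0.0974). The other 11 mitochondrial protein genes tested did not pass (median of all 12 0.10), and the 13 genes took 9.09% to 12.1% of counts in NeuroD1 negative against 12.6% and 5.43% in Glu negative. Of 80 ribosomal protein genes tested, 77 had a negative fold change (median -0.51) and 0 passed. No gene passed in the lists for villus tip genes (6 tested), epithelial defence and interferon response (14), immediate early genes (13), the unfolded protein response (10) or red blood cells (4).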

How the data were processed

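RNA of FACS-sorted cells, amplified from 2 ng, was sequenced in 11 libraries, 5 of them of reporter-negative cells. Per the submitters' processing notes, the authors used CASAVA, TopHat2 2.1.0 and Cufflinks 2.2.1 with GRCm38, and no annotation release or strand setting is recorded there. The authors' deposited values are estimated counts, not whole in 848 of 38283 genes, and were rounded. Gene names and lengths came from GENCODE vM21, which matched 335 of 339 list genes. After mt-Rnr1 and mt-Rnr2 were left out, all 11 libraries were fitted with edgeR 4.0.16 (TMM scaling, filterByExpr, quasi-likelihood test over 4 group means, Benjamini-Hochberg adjusted p under 0.05), so the groups share 1 estimate of the spread. Folds against a group at 0 took 3 counts in the whole group as the floor, and their intervals cover counting error only. On simulated data with 13755 genes, 2.08% of genes changed 2-fold, 30.6% of those changed 4-fold, 54.0% of those changed 8-fold and 88.0% of those changed 16-fold were recovered, and 6.45% of calls were false. This was a single run in which all groups had the same mean levels apart from the changed genes. Its rates may therefore not hold for the real groups, which differ more. Alternatives changed the scaling, filter, libraries, tool and inclusion of mt-Rnr1, mt-Rnr2 and immunoglobulin genes. The rule for named genes took the largest called changes, the leading genes by share and list members, and the genes outside it were chosen after their values were seen (most gastric and squamous genes, Nefl, Nefm, Dcx, Elavl2, Pcsk2, Sv2b, Clu, Peg10, the neighbours of Gcg, Ccl22, Tnfsf14, Igkv12-89, Gip, Nts, Pyy, Sct, Lct, Slc2a2, Col1a1, Trpm5 and Ddx3y). The members and lists were chosen with earlier results of these data known.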

Additional observations from a re-analysis of the deposited data

Results flagged for a closer look

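In 2 of the 5 reporter-negative libraries a signal appeared in genes that the comparisons left out. The genes of mitochondrial ribosomal RNA, mt-Rnr1 and mt-Rnr2, took 33.0% of the deposited counts of NeuroD1_negative_6361 and 33.9% of those of NeuroD1_negative_6362, and both genes are listed at 0 in NeuroD1_negative_6360 and in both Glu negative libraries. With these genes kept in the table, 70 genes passed the edgeR test in place of 69, and 68 of the 69 were among them.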

How the results depend on the processing

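Of the 69 genes that passed, 69 also passed with DESeq2, without a low-count filter, with a stricter filter and with a robust fit, while 65 passed with RLE factors and 59 with limma voom. The 52 genes higher in NeuroD1 negative became 159 without a low-count filter, 130 with DESeq2 and 22 to 40 when 1 library was left out. The 17 lower genes became 93 without the filter, 46 with the negative libraries alone, 27 with limma voom, 46 with DESeq2 and 4 to 9 when 1 library was left out. Adjusted p-values could fall steeply without the filter while the fold change stayed. The edgeR adjusted p of Fap went from 2.56e-06 to 3.46e-25 at log2 fold changes of -6.81 and -6.83. With mt-Rnr1 and mt-Rnr2 kept, the log2 ratio of the goblet share moved from -0.19 to -0.54. Per kilobase, the leading 10 genes took a mean of 37.9% in place of 25.9% (NeuroD1 negative) and of 42.5% in place of 30.2% (Glu negative). No named gene that passed changed sign under any setting tried. Genes that did not pass and changed sign had these ranges of log2 fold change when 1 library was left out: -0.74 to 0.10 for Aqp4, -1.57 to 0.10 for Cd79a, -0.62 to 0.24 for Col1a1, -0.54 to 1.51 for Defa24, -0.26 to 0.57 for ENSMUSG00000083696, -1.71 to 1.19 for Igha, -0.78 to 1.22 for Igkc, -1.43 to 0.33 for Jchain, -0.91 to 0.089 for Kcnh7, -0.67 to 0.081 for Lars2, -0.61 to 0.024 for Muc2, -0.19 to 0.61 for Olfm4, -0.040 to 0.39 for Sct, -0.54 to 2.11 for Xist, -0.40 to 0.11 for Zg16 and -0.081 to 1.02 for mt-Co1. With limma voom, Igkc was at 0.090. The cause was not tested. No paired analysis was possible because the label numbers of the 2 negative groups share no value. Only 2 Glu libraries, far apart from each other, limit how small a difference could pass.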
